A study of Mus musculus with 8 samples.

Results

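The genes described here encode the proteasome, its activators and its assembly factors, as measured by RNA sequencing of the hippocampus of wild-type and Mbd2-/- mice. They were chosen by symbol, as every row named Psma, Psmb, Psmc, Psmd, Psme, Psmf or Psmg followed by a number. Symbols ending in -ps were left out, and the choice was made with earlier results of these data known. That rule found 50 of the 19201 genes in the data, of which 19 were core subunits (Psma, Psmb), 21 had symbols of regulatory subunits (Psmc, Psmd) and 10 were activator, inhibitor or assembly genes (Psme, Psmf, Psmg). The study asked how loss of Mbd2, a protein that binds methylated DNA, alters gene expression in this tissue. Each genotype had 4 libraries, and each library pooled the hippocampi of 2 mice aged 10 to 12 weeks. Both groups were on the C57BL/6 background, and the labels call the wild-type group control. The knockout is of the germline and so not confined to the hippocampus, its allele keeps exon 1, and both genotypes were bred from heterozygous parents. The values were normalized counts, which are reads on a gene divided by a size factor of the library. Libraries were of whole tissue, so a change in the number of cells of a type and a change in RNA per cell cannot be told apart.

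The proteasome is the protease that degrades most ubiquitin-tagged proteins in the cytosol and nucleus. Its core particle is a barrel of stacked rings, with outer rings of alpha subunits (Psma) that gate the entrance and inner rings of beta subunits (Psmb) that carry the active sites. The regulatory particle caps the barrel: the ATPases of its base (Psmc) unfold substrates, and its non-ATPase subunits (Psmd) recognise ubiquitin and remove it. Activators of the Psme family can replace that cap, and Psmg proteins help the core assemble. In neurons the proteasome takes part in synaptic plasticity and in the turnover of damaged proteins.

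Library depth ran from 8087750 to 23790825 reads on genes. Mbd2 itself had 295, 363, 371 and 354 normalized counts in the wild-type libraries and 244, 239.6, 339 and 217 in the Mbd2-/- libraries. Its level was lower on average in the knockout, with overlapping libraries (log2 fold change -0.43, SE 0.12, adjusted p = 0.0174), and reads over the whole gene check the labels only in part because exon 1 is intact. Fold changes depended on transcript length across the whole genome: between the log2 fold change and the length of the longest coding transcript, Spearman's rho was -0.47 over 14186 genes, which are not independent replicates. In single Mbd2-/- libraries this rho was -0.50, -0.44, -0.49 and -0.10, so that replicate 4 stood apart, and wild-type libraries lay between -0.065 and 0.066. Markers of choroid plexus were higher in the knockout for 17 of 17 genes (summed level 47362 to 53757 against 24491 to 26207 in the wild-type libraries), while 10 of 13 thalamus markers were lower (4194 to 4800.0 against 6132 to 6269), and no gene of either list was at 0 in all libraries. What these differences contribute to the results on proteasome genes was not tested, and many values are given again with the length trend removed.

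Most of the tested proteasome genes rose in the Mbd2-/- hippocampus. Of the 48 members whose normalized counts averaged 10 or more, 28 were higher in Mbd2-/- mice and 0 were lower at an adjusted p under 0.05 (limma on log2(normalized count + 1), adjusted by Benjamini-Hochberg over all 14504 genes tested, two-sided). Among all genes tested 12.0% were higher and 10.0% lower. The median log2 fold change of the 48 members was 0.23 (a fold of 1.18), against -9.1e-05 for all genes tested. In 27 members every Mbd2-/- library lay above every wild-type library (12.1% of all genes tested), and in 1, Psme3, every one lay below (11.5%). The count rests on few libraries and on length: it was 19 without wild-type replicate 3 and 31 without Mbd2-/- replicate 4 (17.9% of all genes then higher), and it fell to 8 once the genome-wide length trend was taken out of each library, as described with the lengths.

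**Figure D1:**
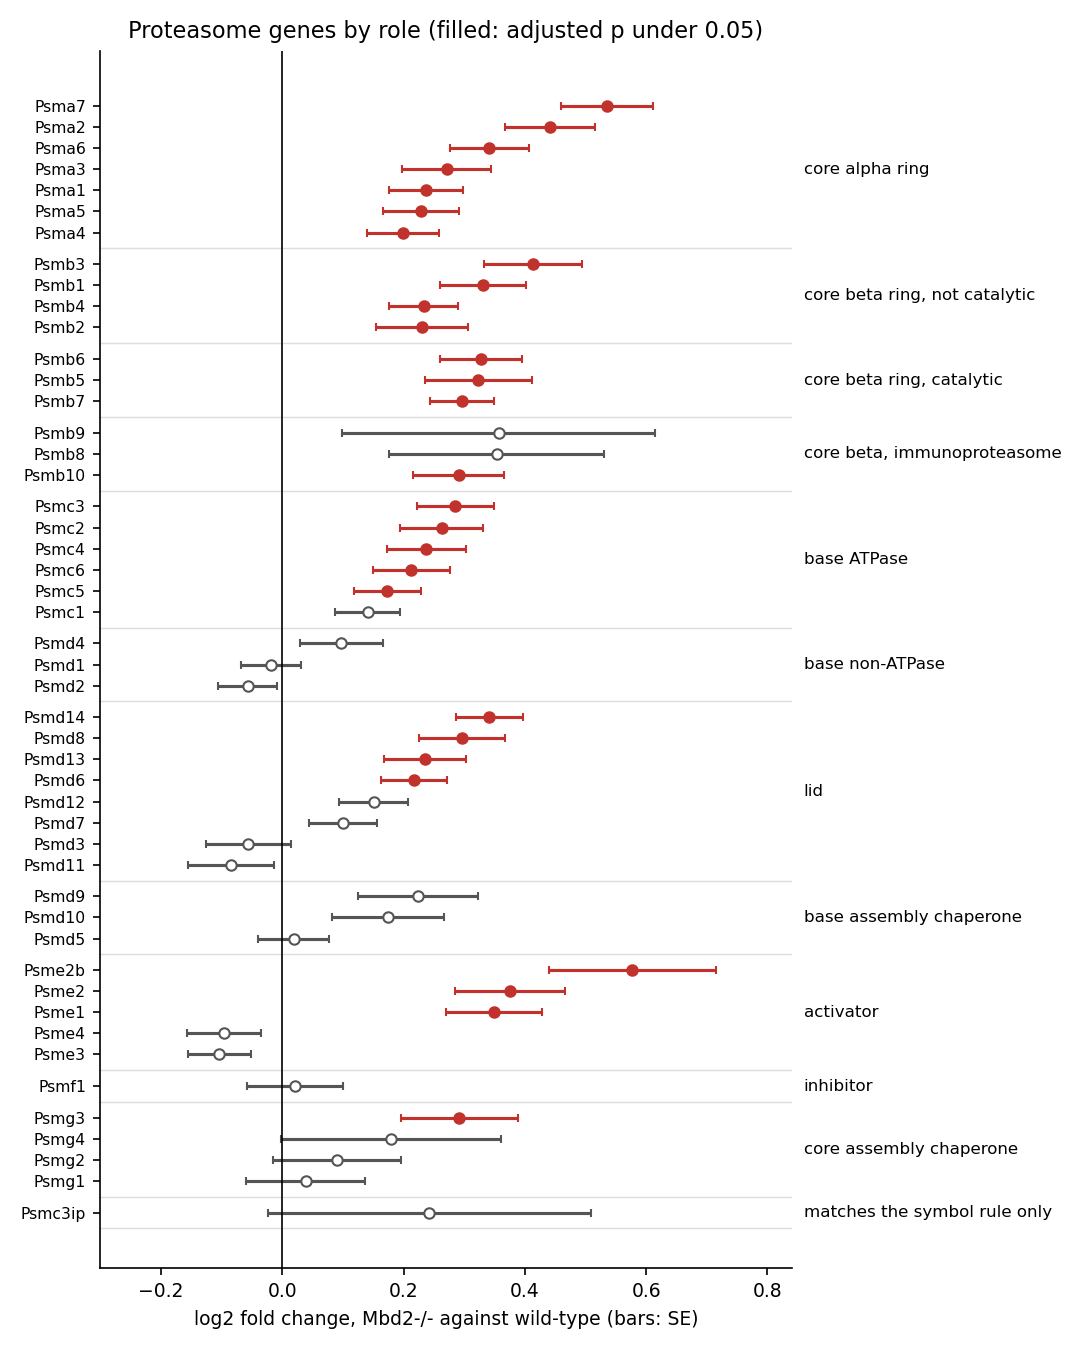
Log2 fold change of the 48 tested members, Mbd2-/- against wild-type (horizontal axis, log2 scale, bars are the SE of the limma fit), ordered by role. Filled points have an adjusted p under 0.05, and all 28 of them lie to the right of 0, from 0.17 for Psmc5 to 0.58 for Psme2b.

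Among the core subunits 15 of 17 tested genes were higher, with a median log2 fold change of 0.32, or 1.25-fold. The 14 subunits of the standard core (7 alpha and 7 beta) were all higher, and the 2 that did not pass were the immunoproteasome subunits Psmb8 and Psmb9. All 7 alpha subunits rose, and in each of them the Mbd2-/- libraries lay wholly above the wild-type ones. Psma7, an alpha subunit (chr2:179771078-179777138 in mm9, minus strand), had 658, 721, 766 and 724 normalized counts in the wild-type libraries and 1130.1, 1013, 1135 and 895 in the Mbd2-/- libraries. The lowest knockout library exceeded the highest wild-type library, and the increase was 1.45-fold (log2 fold change 0.54, SE 0.076, adjusted p = 2.51e-04). No other core subunit rose by more. Psma2, also of the outer ring, had 609, 756, 648 and 694 in the wild-type and 973, 944, 944 and 813 in the Mbd2-/- libraries, again without overlap (log2 fold change 0.44, SE 0.075, adjusted p = 8.46e-04). The remaining alpha subunits rose by less, with log2 fold changes of 0.34 for Psma6, 0.27 for Psma3, 0.24 for Psma1, 0.23 for Psma5 and 0.20 for Psma4. With the genome-wide length trend removed, 4 of the 14 standard core subunits passed, or 3 with coding transcripts, and their median fell from 0.31 to 0.069. Psma2, Psma3 and Psma7 were the alpha subunits among them, while the values of Psma6 (0.095), Psma1 (0.020) and Psma5 (0.018) fell towards 0 and Psma4 (-0.024) turned sign. With 1 library left out Psma4 passed in 3 of 8 fits and Psma5 in 6.

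Beta subunits that have no active site form the scaffold of the inner rings. All 4 rose, and Psmb3 rose most, from 409, 448, 407 and 478 normalized counts in the wild-type libraries to 663, 587, 567 and 509 in the Mbd2-/- libraries. Its genotypes did not overlap (log2 fold change 0.41, SE 0.082, adjusted p = 0.00241). Psmb1 (0.33, adjusted p = 0.00414) and Psmb4 (0.23, adjusted p = 0.00876) were likewise separated between genotypes. Psmb2 passed the test with overlapping libraries (0.23, adjusted p = 0.0386), and it passed in only 2 of the 8 fits that left out 1 library. With the length trend removed Psmb3 passed when the longest transcript of any kind gave the length (0.25, adjusted p = 0.0241) and not when the longest coding transcript did (0.12, adjusted p = 0.293). Psmb1 (0.083, adjusted p = 0.320) and Psmb4 (0.013, adjusted p = 0.899) did not pass, and Psmb2 turned sign (-0.050, adjusted p = 0.662).

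The 3 catalytic subunits rose together and by similar amounts. Psmb5, which carries the chymotrypsin-like activity, had 739, 683, 650.0 and 659 normalized counts in the wild-type libraries and 895, 830.4, 1012 and 704 in the Mbd2-/- libraries, where replicate 4 fell within the wild-type range (log2 fold change 0.32, SE 0.088, adjusted p = 0.0164). Psmb6, which carries the caspase-like activity, had 845, 843, 855 and 879.5 in wild-type and 1113, 1084, 1181 and 932 in Mbd2-/- libraries, without overlap (log2 fold change 0.33, SE 0.067, adjusted p = 0.0031). Psmb7, which carries the trypsin-like activity, had 1048, 1083, 1120.3 and 1052 in wild-type and 1311, 1323, 1376 and 1273 in Mbd2-/- libraries, also without overlap (log2 fold change 0.30, SE 0.053, adjusted p = 0.00117). In folds the 3 increases were 1.25, 1.25 and 1.23. None of these 3 passed with the length trend removed, and Psmb5 passed in 5 of the 8 fits with 1 library left out.

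Interferon-inducible counterparts replace these 3 subunits in the immunoproteasome of immune cells. Psmb8, the counterpart of Psmb5, had 36.0, 25.6, 24.6 and 33.5 normalized counts in the wild-type libraries and 35.8, 40.2, 35.1 and 41.3 in the Mbd2-/- libraries. Psmb9, the counterpart of Psmb6, had 10.5, 13.5, 12.8 and 18.6 in wild-type and 15.3, 21.0, 22.3 and 13.5 in Mbd2-/- libraries. Both genes were scarce, with 22 to 63 and 7 to 35 reads per library, their genotypes overlapped, and neither passed the test (Psmb8 log2 fold change 0.35, SE 0.18, adjusted p = 0.162, and Psmb9 log2 fold change 0.36, SE 0.26, adjusted p = 0.342). Their fold changes were close to those of the catalytic subunits, but with SEs that large a change of this size did not pass. What read depth contributed to these SEs was not tested. Psmb10, the counterpart of Psmb7, was better covered, at 319, 281, 309 and 288 in wild-type and 363, 379, 392 and 333 in Mbd2-/- libraries, and it rose without overlap (log2 fold change 0.29, SE 0.075, adjusted p = 0.0119), a call that ended with the length trend removed (0.086, adjusted p = 0.453).

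The balance between inducible and standard subunits differed between genotypes by less than the spread between libraries. The log2 ratio of Psmb10 to Psmb7 in normalized counts was -1.71, -1.94, -1.85 and -1.87 in the wild-type libraries and -1.85, -1.80, -1.81 and -1.93 in the Mbd2-/- libraries, which overlapped. Per kilobase of longest coding transcript, the Psmb10 level was 25.4% ± 1.73 (SD, n = 4) of the Psmb7 level in wild-type and 25.3% ± 1.02 in Mbd2-/- mice. The Psmb8 level per kilobase was 2.34% ± 0.376 of that of Psmb5 and 2.43% ± 0.562 in the knockout, and the Psmb9 level was 0.953% ± 0.217 of that of Psmb6 and 0.982% ± 0.174. In mean log2 ratio the genotypes differed by 0.031 (Psmb8 to Psmb5), 0.030 (Psmb9 to Psmb6) and -0.0048 (Psmb10 to Psmb7), each less than the SD between libraries of either genotype.

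**Figure D2:**
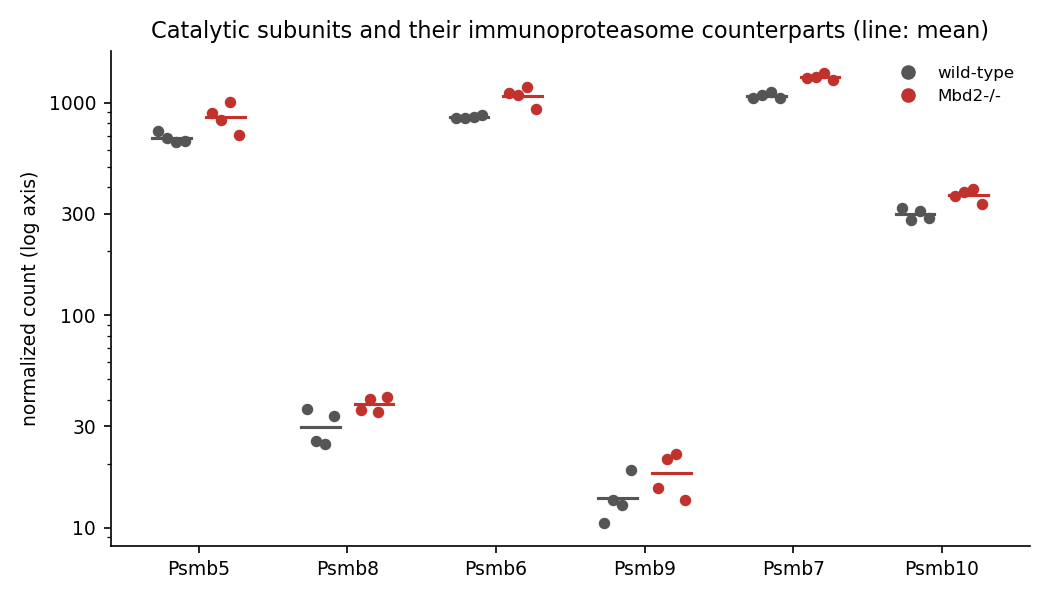
Normalized counts of the 3 catalytic subunits and their immunoproteasome counterparts in each library (vertical axis, log scale, points are libraries, lines are means of 4). Psmb5, Psmb6, Psmb7 and Psmb10 are higher in Mbd2-/- mice, and the points of Psmb8 and Psmb9 overlap, at levels up to 41.3 normalized counts.

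Promoters of the members were read from RefSeq (GRCm38.p6, a later build than the mm9 of the counts) as the 250 bases before the start site. Entries matched 42 of the 50 members, in 45 windows. The letters TGACNNNGC, the core of the antioxidant response element that Nfe2l1 and Nfe2l2 can bind in proteasome promoters, were searched on both strands, as were the letters CCAAT bound by nuclear factor Y, and no window held both. TGACNNNGC stood in 5 of the 45 windows (11.1%), against 10.2% of all RefSeq promoter windows of that length and 11.6% of the windows of tested genes. Those 5 genes were Psmb5, Psmb6, Psmc6, Psmd12 and Psmd9, of which 3 rose. CCAAT stood in 15 windows (33.3%), against 33.8% and 34.5%. In the 27 windows of members that rose the shares were 11.1% and 29.6%, and in the 17 of members that did not pass they were 11.8% and 35.3%. A match is a description of letters and does not show binding. Printed 5′ to 3′ on the strand of the gene with motif letters in capitals are the promoters of the 2 catalytic subunits that hold TGACNNNGC, Psmb5 (chr14:54617996-54618245, minus strand) and Psmb6 (chr11:70525107-70525356, plus strand), that of Psma7 with a CCAAT (chr2:180042465-180042714, minus strand), and that of Psmd2, a regulatory gene that did not pass the test, with neither (chr16:20651402-20651651, plus strand).
Psmb5: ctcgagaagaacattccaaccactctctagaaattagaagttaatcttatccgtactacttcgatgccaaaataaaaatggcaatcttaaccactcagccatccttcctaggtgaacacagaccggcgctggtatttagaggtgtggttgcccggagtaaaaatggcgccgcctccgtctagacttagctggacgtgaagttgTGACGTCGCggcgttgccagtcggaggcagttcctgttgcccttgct
Psmb6: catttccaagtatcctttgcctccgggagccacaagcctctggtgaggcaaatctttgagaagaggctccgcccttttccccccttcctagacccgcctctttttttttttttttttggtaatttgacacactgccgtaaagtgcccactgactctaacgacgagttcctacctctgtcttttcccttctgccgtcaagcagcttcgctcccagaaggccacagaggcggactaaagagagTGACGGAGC
Psma7: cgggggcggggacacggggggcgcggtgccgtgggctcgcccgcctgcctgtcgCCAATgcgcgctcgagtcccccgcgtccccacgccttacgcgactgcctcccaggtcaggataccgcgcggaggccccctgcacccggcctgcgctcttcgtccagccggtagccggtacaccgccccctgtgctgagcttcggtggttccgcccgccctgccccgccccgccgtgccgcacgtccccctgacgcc
Psmd2: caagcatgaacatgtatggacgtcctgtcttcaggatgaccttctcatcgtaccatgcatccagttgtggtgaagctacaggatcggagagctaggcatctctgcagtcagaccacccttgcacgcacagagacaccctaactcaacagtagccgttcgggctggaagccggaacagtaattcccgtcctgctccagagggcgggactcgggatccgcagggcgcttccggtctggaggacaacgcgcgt

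In Psmb5 the match began 47 bases before the start site, in Psmb6 9 bases before it and in Psma7 196 bases before it. The member windows held a median of 14 CpG dinucleotides, the sites at which Mbd2 recognises methylation, with a range of 2 to 35. Windows of all genes tested held a median of 15 and all RefSeq windows 6. Methylation and binding of Mbd2 were not analysed here.

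The regulatory particle was less uniform. By symbol 9 of 21 regulatory genes were higher, with a median log2 fold change of 0.17, or 1.13-fold, and 12 did not pass the test. Psmc3ip is among those 21 by its symbol only, since its protein takes part in meiotic recombination and is no part of the proteasome. It was scarce, at 16.5, 30.1, 18.2 and 20.7 normalized counts in the wild-type and 39.6, 16.5, 20.7 and 27.9 in the Mbd2-/- libraries, which overlapped (log2 fold change 0.24, SE 0.27, adjusted p = 0.550). Without it 9 of 20 were higher with a median of 0.17.

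The ATPases form the ring that unfolds substrates and threads them into the core. Of the 6, 5 rose, by log2 fold changes from 0.17 for Psmc5 to 0.29 for Psmc3. Of these 5 only Psmc2 had overlapping libraries. Psmc3 (chr2:90894166-90906526 in mm9) had 1551, 1546, 1575 and 1540.3 normalized counts in the wild-type libraries and 1927, 1995, 2045 and 1635 in the Mbd2-/- libraries (log2 fold change 0.29, SE 0.064, adjusted p = 0.00529). Its 4 wild-type libraries lay close together, and Mbd2-/- replicate 4 was nearest to them. Psmc2 (0.26, adjusted p = 0.0125), Psmc4 (0.24, adjusted p = 0.0168) and Psmc6 (0.21, adjusted p = 0.0243) lay between these values. Psmc1 had a log2 fold change of 0.14 and missed the threshold (adjusted p = 0.0686) although its libraries did not overlap, and it passed without Mbd2-/- replicate 4. With 1 library left out Psmc5 passed in 2 of 8 fits, Psmc6 in 4 and Psmc4 in 6. With the length trend removed Psmc3 passed (0.17, adjusted p = 0.0307), and Psmc2 passed by the longest transcript of any kind (0.28, adjusted p = 0.006) and not by the longest coding transcript (0.14, adjusted p = 0.103). Psmc4 (0.13) and Psmc6 (0.14) did not pass, and Psmc5 turned sign (-0.011).

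The 3 non-ATPase subunits of the base did not pass the test. Psmd2, a large scaffold that docks ubiquitin shuttles, had 2927, 2772, 2769 and 2780.5 normalized counts in the wild-type libraries and 2604, 2824, 2734 and 2651 in the Mbd2-/- libraries (log2 fold change -0.057, SE 0.048, adjusted p = 0.420). Psmd1, the other large scaffold, had 1703, 1847, 1756 and 1753 in wild-type and 1769, 1719, 1699 and 1776 in Mbd2-/- libraries (log2 fold change -0.019, SE 0.050, adjusted p = 0.816). Both sets of libraries overlapped, and these genes, named here after their values were seen, were among the most deeply counted members. For Psmd4, a ubiquitin receptor, the log2 fold change was 0.098 (adjusted p = 0.323).

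Of the 8 lid subunits, 4 rose. Psmd14, the deubiquitinase that removes ubiquitin chains during degradation (chr2:61549751-61638433 in mm9), had 839, 794, 776 and 812 normalized counts in the wild-type libraries and 1028, 991, 1068 and 995 in the Mbd2-/- libraries. The genotypes were far apart relative to their spread, and the increase of 1.27-fold was the largest of the regulatory genes (log2 fold change 0.34, SE 0.055, adjusted p = 6.10e-04). Psmd8 (0.30, adjusted p = 0.00762), Psmd13 (0.23, adjusted p = 0.0207) and Psmd6 (0.22, adjusted p = 0.0106) rose by less. With the length trend removed Psmd14 alone of these 4 passed, Psmd8 (0.13), Psmd13 (0.14) and Psmd6 (0.031) did not, and Psmd13 passed in 5 of 8 fits with 1 library left out. Psmd7, the partner of Psmd14 in the lid, had a log2 fold change of 0.10 (adjusted p = 0.213), and Psmd12 one of 0.15 (adjusted p = 0.0659). The scaffold subunits Psmd3 (-0.056, adjusted p = 0.605) and Psmd11 (-0.085, adjusted p = 0.416) had values below 0 that did not pass. The chaperones that help the base assemble, Psmd9 (0.22, adjusted p = 0.115), Psmd10 (0.17, adjusted p = 0.189) and Psmd5 (0.019, adjusted p = 0.853), did not pass either. Without wild-type replicate 3 the count of regulatory genes fell to 5, and without Mbd2-/- replicate 4 it was 13.

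Per library, the mean of the 17 core genes on the log2 scale, relative to the wild-type mean, was 0.35, 0.35, 0.39 and 0.19 in the Mbd2-/- libraries and between -0.038 and 0.049 in the wild-type ones. For the 21 regulatory genes it was 0.20, 0.14, 0.20 and 0.071, against -0.025 to 0.028. Both classes were thus above the wild-type range in 4 of 4 libraries, and Mbd2-/- replicate 4 was the lowest in both. Core minus regulatory was 0.15, 0.21, 0.18 and 0.12 in the Mbd2-/- libraries and -0.014, -0.016, -0.012 and 0.043 in the wild-type libraries. The lowest knockout value exceeded the highest wild-type value, and the difference between genotype means was 0.17. With the length trend removed the values were 0.036, 0.13, 0.074 and 0.080 in the knockout and -0.0058, -0.014, -0.019 and 0.040 in wild-type, so that Mbd2-/- replicate 1 lay below wild-type replicate 4 and the difference of means fell to 0.079. Without Psmc3ip, an alternative added after the data were seen, the length-removed values were 0.064, 0.099, 0.057 and 0.095 in the knockout and -0.021, 0.0098, -0.028 and 0.039 in wild-type, which did not overlap and had a difference of means of 0.079. Members were chosen with earlier results known, so these class means carry no p.

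**Figure D3:**
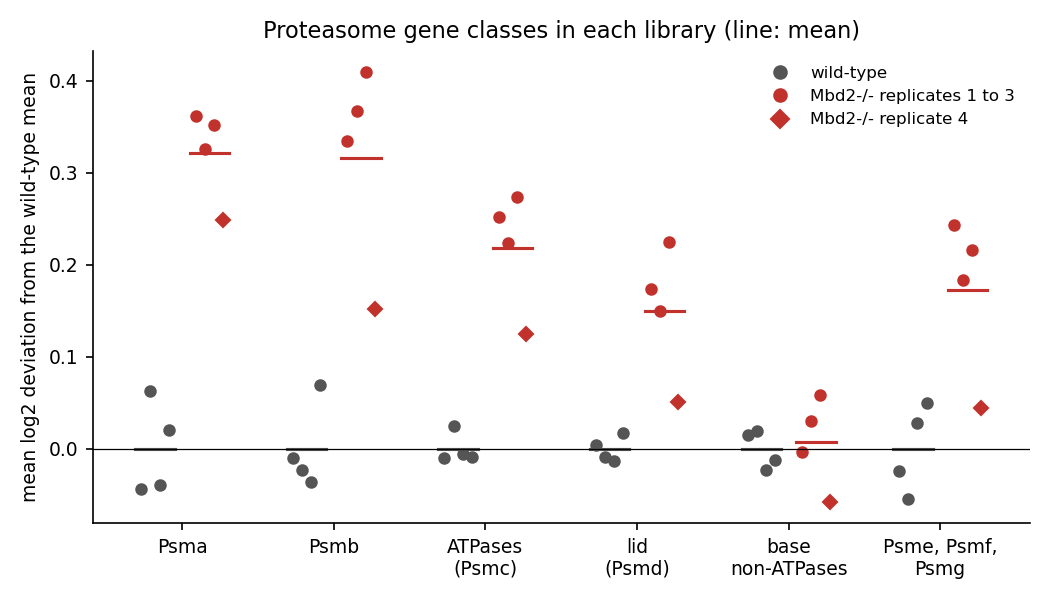
Mean over the genes of a class of the log2 deviation from the wild-type mean (vertical axis), 1 point per library, lines are means of 4 libraries, and Mbd2-/- replicate 4 is drawn as a diamond. Both Psma and Psmb genes lie above the wild-type points in every Mbd2-/- library, the non-ATPases of the base overlap with wild-type, and the diamond is the lowest knockout point in each class.

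Activators gave a divided picture. Psme1 and Psme2 form the interferon-inducible cap, and both rose. Psme2 had 175, 165, 171 and 189 normalized counts in the wild-type libraries and 236, 237, 245 and 194 in the Mbd2-/- libraries, without overlap (log2 fold change 0.38, SE 0.091, adjusted p = 0.00832), and Psme1 rose to a like extent (0.35, adjusted p = 0.00573). Psme2b had the largest fold change of all members, from 42.0, 39.9, 52.0 and 44.1 in wild-type to 70.2, 62.2, 71.7 and 62.5 in Mbd2-/- libraries (log2 fold change 0.58, SE 0.14, adjusted p = 0.00752). It is a near copy of Psme2 that the GENCODE annotation names as a pseudogene: the transcripts are identical at 789 of 794 aligned bases (99.37%), so how reads divided between them is uncertain, and their increases are not independent. With the length trend removed Psme1 passed when the longest transcript of any kind gave the length (0.25, adjusted p = 0.023) and not when the longest coding transcript did (0.12, adjusted p = 0.284), and Psme2 (0.11, adjusted p = 0.382) and Psme2b (0.29, adjusted p = 0.177) did not. Psme3, which caps nuclear proteasomes and was singled out after its values were seen, had 1246, 1169, 1179 and 1158 in wild-type and 1070.1, 1119, 1092 and 1139.7 in Mbd2-/- libraries. Every knockout library of Psme3 was below every wild-type one, yet the difference did not pass the test (log2 fold change -0.10, SE 0.053, adjusted p = 0.168). Psme4, an activator that binds as a monomer, had a log2 fold change of -0.097 (adjusted p = 0.272), and the inhibitor Psmf1 one of 0.021 (adjusted p = 0.880).

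Core assembly chaperones passed in 1 of 4 cases. Psmg3 had 102, 105, 115 and 116 normalized counts in the wild-type libraries and 128, 128, 142 and 139 in the Mbd2-/- libraries, which did not overlap (log2 fold change 0.29, SE 0.096, adjusted p = 0.0393). This call was fragile, since Psmg3 passed in 0 of the 8 fits that left out 1 library, and with the length trend removed its log2 fold change was 0.0086. Psmg1 (0.039, adjusted p = 0.814) and Psmg4 (0.18, adjusted p = 0.513) did not pass. Psmg2 lies on chromosome 18, as Mbd2 does, 2914 kb away, and had 112, 102, 124 and 119.5 in wild-type and 138, 123, 119.5 and 109 in Mbd2-/- libraries, with overlap (log2 fold change 0.090, SE 0.11, adjusted p = 0.579). Psma8, the testis-specific alpha subunit, lies on the same chromosome 55807 kb from Mbd2 and was too scarce to test, with 3.00, 6.02, 2.73 and 3.19 normalized counts in wild-type and 1.28, 1.83, 6.38 and 3.84 in the knockout (19 and 11 reads in all). Psmb11, the beta subunit of the thymus proteasome, was also too scarce, with 8.99, 3.76, 2.73 and 2.66 in wild-type and 2.55, 1.83, 1.59 and 7.69 in the knockout (19 and 13 reads in all, 1 to 8 per library).

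Members that rose were mostly those with short transcripts. Under 1500 bases of longest coding transcript (GENCODE vM1 on mm9), 20 of 26 members rose, where 35.4% of all genes of that length did. The medians there were 0.27 for members and 0.24 for all genes on the log2 scale, so short members moved by close to the median of other short genes while more of them passed the test. From 1500 to under 2500 bases 6 of 13 rose, against 15.0%, with medians of 0.21 and 0.085. At 2500 bases or more 2 of 9 rose, Psma2 (2668 bases) and Psma3 (2846 bases), against 5.60%, with medians of -0.019 and -0.062. The 9 long members include Psmd1, Psmd2, Psmd11, Psme3 and Psme4, whose fold changes were below 0. Core transcripts were shorter (median 1165 bases) than regulatory ones (1785 bases). Across members, described without a test because they share libraries, rho between length and fold change was -0.56 for all 48, -0.074 for the 17 core genes and -0.52 for the 21 regulatory genes.

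**Figure D4:**
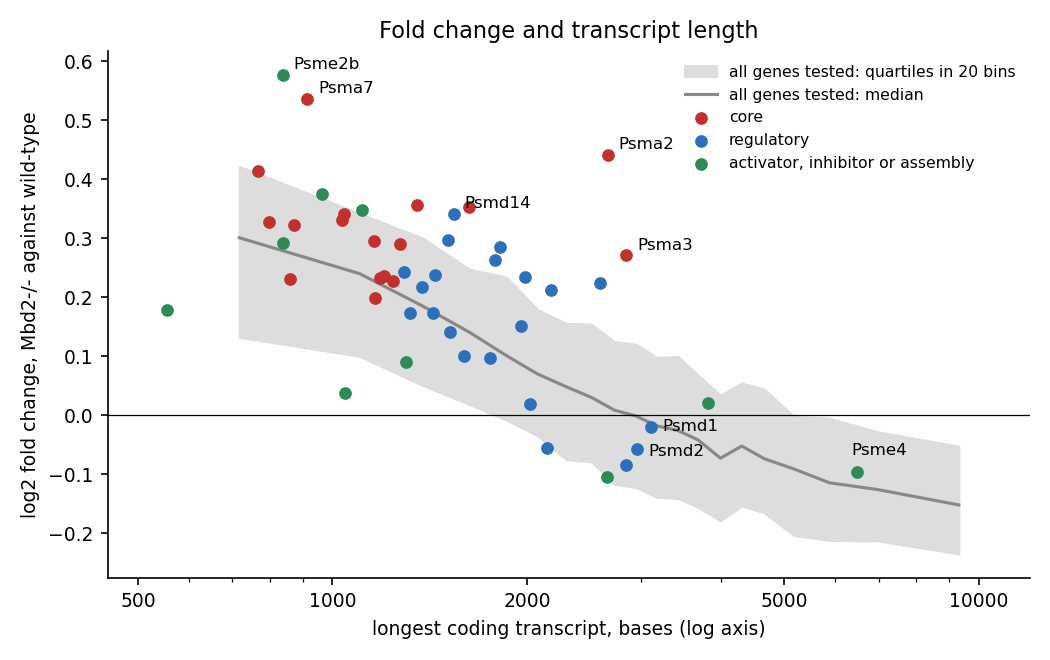
Log2 fold change of the 48 tested members (vertical axis) against the length of the longest coding transcript in bases (horizontal log axis), with the median and quartiles of all tested genes in bins of length as a line and band. Most members follow the falling line, Psma2, Psma3, Psma7 and Psmd14 are among those above the band, and Psmd1 and Psmd2 lie at the lower, long end.

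When the trend with length was taken out of each library by a loess fit on the longest transcript, 8 members remained higher, against 8.13% of the genes then tested. They were Psma2, Psma3, Psma7, Psmb3, Psmc2, Psmc3, Psmd14 and Psme1, and all 8 were among the 28. The log2 fold change after this step was 0.41 for Psma2 (adjusted p = 4.40e-04), 0.37 for Psma7 (adjusted p = 4.06e-04), 0.18 for Psmd14 (adjusted p = 0.0258) and 0.17 for Psmc3 (adjusted p = 0.0307). Psmb5, Psmb6 and Psmb7, the catalytic subunits, no longer passed (0.045, 0.067 and 0.071). The medians were 0.083 for core and 0.031 for regulatory genes. With the longest coding transcript in its place, an alternative added after the data were seen, 5 members passed (Psma2, Psma3, Psma7, Psmc3 and Psmd14), against 7.71% of genes. Across 13 alternatives that kept all 8 libraries, Psma2, Psma7, Psmc3 and Psmd14 passed in every one, and 17 of the 28 passed in each of the 8 fits that left out 1 library. Whether the length trend is technical was not tested, and it was weakest in Mbd2-/- replicate 4, in which the core genes were also lowest.

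Levels of different genes were compared per kilobase of longest coding transcript. In wild-type mice the most abundant members were Psmb4 at 1155 ± 45.8 normalized counts per kilobase (SD, n = 4), Psmb1 at 1108 ± 59.6, Psmb6 at 1072 ± 21.1 and Psmc5 at 1015 ± 47.2. Neighbours in this order differed by amounts close to their SDs. Within the standard core, whose subunits are present in equal numbers in the particle, levels ranged 6.25-fold from Psma3 at 185 ± 13.6 to Psmb4. The 6 ATPases ranged 3.25-fold from Psmc6 at 312 ± 12.7 to Psmc5, and the 8 lid subunits 2.53-fold from Psmd11 at 246 ± 10.1 to Psmd3 at 621 ± 32.9. The lowest tested members were Psmb9 at 10.2 ± 2.53, Psmc3ip at 16.6 ± 4.70 and Psmb8 at 18.4 ± 3.48. Activator, inhibitor and assembly genes had a median of 112, against 557 for core and 522 for regulatory genes. Because the longest annotated coding transcript need not be the one expressed, these levels are approximate.

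**Figure D5:**
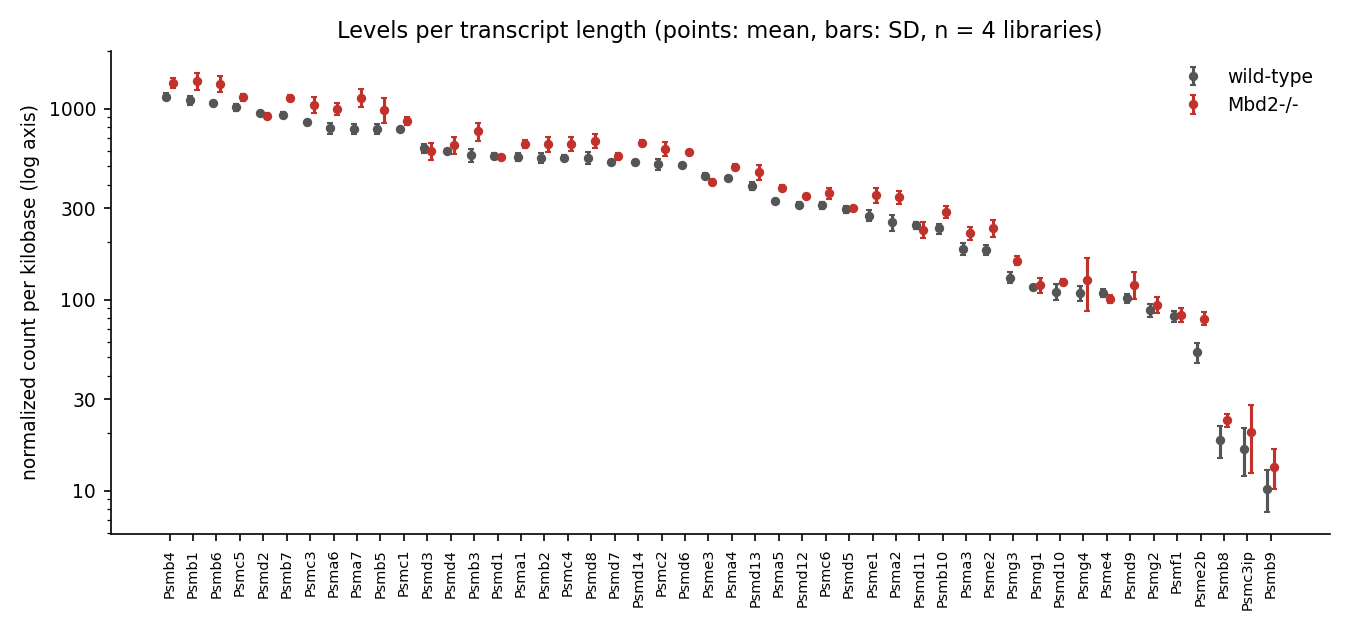
Mean normalized count per kilobase of longest coding transcript of the tested members in wild-type and Mbd2-/- mice (vertical log axis, points are means, bars SD, n = 4 libraries), ordered by the wild-type level. Core and regulatory genes mix over the upper range, most activator, inhibitor and assembly genes lie lower with Psme3 in the middle of the order, and Psmb8, Psmc3ip and Psmb9 are the least abundant.

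Counts for lists of genes that act with the proteasome are to be read against the 12.0% of all genes that were higher and the 10.0% that were lower. Of 10 partners outside the symbol rule, Shfm1, a small lid subunit (0.39, adjusted p = 0.00214), and Pomp, which matures the core (0.23, adjusted p = 0.0169), were higher, and the ubiquitin receptor Adrm1 (0.054, adjusted p = 0.680) and the deubiquitinase Usp14 (-0.029, adjusted p = 0.744) did not pass. The median of the list was 0.025. Of 9 genes that act in transcription of proteasome genes, Foxo4 (0.26, adjusted p = 0.0153) was higher and Nfya (-0.34, adjusted p = 0.00651) lower, with a list median of -0.042. Nfe2l1, which drives the recovery of proteasome genes after inhibition, did not pass (-0.099, adjusted p = 0.135), nor did Nfe2l2 (0.20, adjusted p = 0.0707). Rps27a (0.25, adjusted p = 0.0043), which fuses ubiquitin to a ribosomal protein and has near-identical copies that make its count uncertain, was higher, and the polyubiquitin gene Ubb (0.18, adjusted p = 0.0555) did not pass. With the length trend removed, the log2 fold change was 0.054 for Shfm1, -0.076 for Pomp, -0.017 for Rps27a and 0.25 for Foxo4, so that Pomp and Rps27a turned sign.

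Upstream of the proteasome, 0 of 8 ubiquitin shuttle genes were higher and Ubqln2 was lower (-0.19, adjusted p = 0.028), with a median of -0.076. Ubqln2 passed in 3 of the 8 fits that left out 1 library, and it passed with the length trend removed (-0.18, adjusted p = 0.0267). Of the ATPase Vcp and its cofactors, 10 genes in all, Ubxn1 (0.36, adjusted p = 0.00646) and Ubxn6 (0.28, adjusted p = 0.018) were higher, Ube4b lower (-0.20, adjusted p = 0.0114) and Vcp itself did not pass (-0.14, adjusted p = 0.0809). The COP9 signalosome and eIF3 are complexes built on the same plan as the lid. Of the COP9 genes 7 of 9 have coding transcripts of 1500 to under 2500 bases, a range in which 15.0% of all genes were higher, and 3 of 9 were higher, with the smallest p for Cops5 (0.25, adjusted p = 0.00717), with a median of 0.16, and a count of 2 to 6 with 1 library left out. In eIF3, where 5 of 12 genes are under 1500 bases (35.4% of all such genes were higher), 7 were higher, with the smallest p for Eif3h (0.37, adjusted p = 7.15e-04), with a median of 0.19, and 4 to 8 with 1 library left out. The eIF3 count was 4 when wild-type replicate 2, 3 or 4 was dropped and when Mbd2-/- replicate 1 or 2 was. The chaperonin TRiC, another ringed machine whose 8 genes lie in the range of 1500 to under 2500 bases, had 5 of 8 higher, with the smallest p for Cct5 (0.22, adjusted p = 0.00572), with a median of 0.16. Leaving out 1 wild-type library lowered this count to 3, 1, 2 and 3 (replicates 1 to 4 in turn), and leaving out 1 Mbd2-/- library gave 1, 1, 4 and 6. Of 20 genes of lysosomal proteases and autophagy 7 were higher, with the smallest p for Gabarap (0.26, adjusted p = 0.00538) and the largest change for the protease Ctsh (0.50, adjusted p = 0.00738), and Ulk1 was lower (-0.17, adjusted p = 0.0482), with a median of 0.18. Without Mbd2-/- replicate 2 the lysosomal count was 4, and without Mbd2-/- replicate 4, when 17.9% of all genes were higher, it was 15. COP9 and eIF3 also had their highest counts without Mbd2-/- replicate 4. After removal of the length trend the list medians were 0.044 for COP9, 0.042 for eIF3, 0.12 for TRiC and 0.10 for the lysosomal list. In that step Gabarap fell to 0.072 and Ctsh to 0.47, and the counts higher were 1 for COP9 (0 with coding transcripts), 3 for eIF3, 2 for TRiC and 4 for the lysosomal list, 2 of these 4 among the 7, against 8.13% of genes. Ubxn6 passed there (0.30, adjusted p = 0.011), while Ubxn1 (0.11, adjusted p = 0.242) and Ube4b (-0.11) did not. Ulk1 did not pass there either (-0.086, adjusted p = 0.360), and it passed in 2 of the 8 fits that left out 1 library.

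Immunoproteasome genes and Psme1 and Psme2 respond to interferon, so genes of interferon response and antigen presentation were set beside them. Of 16, 4 were higher and 0 lower, namely H2-K1 (0.45, adjusted p = 0.00139), B2m (0.38, adjusted p = 0.00295), Irf1 (0.33, adjusted p = 0.0344) and H2-D1 (0.35, adjusted p = 0.0374). Tap1 (-0.060, adjusted p = 0.856) and Nlrc5 (0.0051, adjusted p = 0.992) did not pass, and the list median was 0.032. H2-K1 still passed once the length trend was removed (0.33, adjusted p = 0.00699), and B2m (0.10, adjusted p = 0.448), Irf1 (0.25, adjusted p = 0.135) and H2-D1 (0.26, adjusted p = 0.120) did not. With 1 library left out 2 to 4 of the 16 were higher, the lowest count when wild-type replicate 1 or 4 was dropped and when Mbd2-/- replicate 1 or 2 was. Marker counts are likewise to be read against 12.0% of all genes higher. Microglia, the cells in which immunoproteasome subunits are prominent, had 7 of 12 markers higher, with a summed level of 7063 to 8027 in the Mbd2-/- libraries against 6323 to 6561 in the wild-type ones. After the length trend was removed Cx3cr1 passed (0.23, adjusted p = 0.006), and Tmem119 (0.25, adjusted p = 0.0559), Aif1 (0.36, adjusted p = 0.128), C1qa (0.18, adjusted p = 0.132), C1qb (0.20, adjusted p = 0.0878) and C1qc (0.073, adjusted p = 0.501) did not, although Tmem119 did with coding transcripts (adjusted p = 0.0496). The microglia count ran from 4 (without wild-type replicate 1) to 9 (without Mbd2-/- replicate 4) when 1 library was left out. Markers were also higher for 7 of 10 astrocyte genes (summed 129633 to 152571 against 117147 to 119795), 7 of 10 oligodendrocyte genes (96222 to 102559 against 81523 to 83045) and 2 of 10 endothelial genes (2812 to 3008 against 2631 to 2729). The endothelial count is near that share. The 2 were Cldn5 (0.38, adjusted p = 0.00334) and Slco1a4 (0.24, adjusted p = 0.0267), the list median was 0.17, and 3 of the 10 genes, Cdh5 (-0.15, adjusted p = 0.261), Flt1 (-0.10, adjusted p = 0.357) and Tek (-0.10, adjusted p = 0.520), had values below 0. Removal of the length trend left 9 astrocyte, 6 oligodendrocyte and 3 endothelial markers higher, among them 7, 6 and 2 of those counted above, against 8.13% of genes. Among 10 neuron markers 1 was higher, Camk2a (0.27, adjusted p = 1.38e-04), and 1 lower, Syt1 (-0.24, adjusted p = 0.00255), and 6 in all had values below 0, with a median of -0.051. Their summed level of 159845 to 168269 against 149732 to 155175 was set largely by Camk2a, whose mean was 81908 ± 1449 against 68037 ± 941 (SD, n = 4). No marker was at 0 in all libraries. The part of these cell types in the increase of proteasome genes was not tested.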

How the data were processed

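RNA from pooled hippocampi was depleted of ribosomal RNA and sequenced as paired 100 base reads. The authors deduplicated the reads, aligned them to mm9 with STAR and tested genotypes with DESeq2 (versions and read counter not given in the sources used here). The deposited signal is a normalized count per library. The log2 fold changes, standard errors, Wald score and p-values deposited by the authors come from their own comparison and were not used.

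The smallest nonzero value of a library was taken as 1 read, and 100% of values were then whole to within 0.01. Genes averaging 10 or more were tested with limma 3.58.1 in R 4.3.3 (trend and robust moderation) on log2(normalized count + 1), a scale that understates changes of low genes. The script was checked on simulated data. Alternatives used the recovered reads (edgeR 4.0.16, DESeq2 1.42.0, voom), other scalings, pseudocounts of 0.5 and 5, a minimum of 50 or none, a replicate block, removal of the length trend (loess, span 0.5) and each library left out. Symbols matched GENCODE vM1 on mm9 for 18102 genes. Some genes of the lists are not reported here.

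Members and gene lists were chosen with earlier results of these data known. Named with every library were the catalytic and immunoproteasome subunits, in each class the smallest p and largest change, the 5 largest increases, members on chromosome 18 and Psmc3ip, and of each list the smallest p, called genes against the trend and up to 3 others. Replicate numbers did not pair the libraries, no label gives a batch, and p-values measure the spread between pools. Spread between libraries sets the precision of well-counted genes, and read totals cover counting error only.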

Additional observations from a re-analysis of the deposited data

Results flagged for a closer look

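Single libraries stood apart from the other 3 of their group in 4 of the 102 groups of 4 libraries checked, where chance flags about 1 in 20. Psma8 had 6.02 normalized counts in wild-type replicate 2 and 2.73 to 3.19 in the other wild-type libraries. Psmb11 had 7.69 in Mbd2-/- replicate 4 and 1.59 to 2.55 in the others. Both values rest on 8 reads, the highest count of either gene in any library. Psmc1 had 1153 in wild-type replicate 4 and 1191 to 1194 in the others, and Psmd2 had 2927 in wild-type replicate 1 and 2769 to 2780 in the others.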

How the results depend on the processing

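Removing the length trend, by the longest and by the longest coding transcript in turn, changed the most values. It left 8 and 5 members higher, of them 4 and 3 core, 3 and 2 regulatory and 1 and 0 activator, inhibitor or assembly genes, and 2105 and 1994 of all genes called in place of 3185. The median log2 fold change became 0.083 and 0.084 for core and 0.031 and 0.033 for regulatory genes, and core minus regulatory 0.079 and 0.068 (by the longest transcript without Psmc3ip 0.079). Log2 fold changes turned sign, none of them past the threshold, for Psma4 -0.024 and -0.023, Psmb2 -0.050 and -0.050, Psmc1 -0.023 and -0.019, Psmc5 -0.011 and -0.022, Psmd10 -0.0037 and -0.0011, Psmd7 -0.051 and -0.047, Psme4 0.013 and 0.015, Psmg1 -0.21 and -0.21, Psmg2 -0.11 and -0.11 and Psmg4 -0.15 and -0.15, and with the coding transcript also for Psmd4 (-0.025) and Psmd5 (-0.068). The alternative itself sets these shifts. Limma without trend and robust moderation called 4 regulatory genes, and there Mbd2 (-0.43) missed the threshold (adjusted p = 0.0731); the cause was not tested.

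With 1 library left out, 19 (without wild-type replicate 3) to 31 (without Mbd2-/- replicate 4) members were higher, 11 to 15 of them core, 5 to 13 regulatory and 3 to 3 activator, inhibitor or assembly genes. The number of all genes called ran from 2073 (without wild-type replicate 3) to 5156 (without Mbd2-/- replicate 4), and it was 2099 when wild-type replicate 1 was left out, 2100 for Mbd2-/- replicate 1 and 2109 for Mbd2-/- replicate 2. Without Mbd2-/- replicate 4, 27 of the 28 members stayed, Psmg3 was lost and Psmc1, Psmd12, Psmd4 and Psmd9 were gained, against 17.9% of all genes higher. Median log2 fold changes ran from 0.26 to 0.34 for core and 0.16 to 0.20 for regulatory genes, and core minus regulatory from 0.15 to 0.18. Mbd2 ran from -0.56 to -0.35 and missed the threshold without Mbd2-/- replicate 1 or 2 or wild-type replicate 3. Signs turned, none past the threshold, for Psmd1 (-0.036 to 0.0029, positive without wild-type replicate 2), Psmd3 (-0.099 to 0.015, positive without Mbd2-/- replicate 4), Psmd5 (-0.00043 to 0.044, negative without wild-type replicate 2), Psmf1 (-0.028 to 0.067, negative without Mbd2-/- replicate 2 or wild-type replicate 2) and Psmg1 (-0.012 to 0.082, negative without Mbd2-/- replicate 2).

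The replicate numbers did not pair the libraries, since deviations of libraries of the same number correlated at -0.10, -0.057, 0.074 and 0.035. A fit with the replicate number as a block called 27 members, all among the 28 and without Psmg3, and raised all genes called from 3185 to 3192; it changed no other call of a member. For the tested members, 550 values under alternatives with all libraries kept their direction and side of the threshold, 49 kept the direction but missed it and 22 turned sign, and with 1 library left out 332 stayed, 41 missed it, 5 newly passed and 6 turned. EdgeR on the recovered reads called the same 28 and DESeq2 27 of them. Reads were few for Psmb8, Psmb9, Psmc3ip, Psma8 and Psmb11, and what depth contributed to their results was not tested.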
